A study of Mus musculus with 7 samples.

Results

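The Sfmbt2 repeat miRNAs are the mouse miRNAs of the miR-297, miR-466, miR-467 and miR-669 families, taken here as every mouse row of the count tables whose name, or any joined part of it, carries one of these 4 stems. They took up 74 of the 1914 mouse miRNA rows: 5 of miR-297, 27 of miR-466, 13 of miR-467 and 29 of miR-669, where a row joining miR-669m-5p with miR-466m-5p was placed under miR-669. The libraries hold small RNA from lateral ventricles with choroid plexus, dissected from adult C57BL/6J mice, with 4 libraries of the genotype TAp73 knockout and 3 of the wild type. Trp73, the gene of the transcription factor p73, has a longer product with a transactivation domain, TAp73, whose role in multiciliated cells of the brain is the subject of the series. The labels give no age beyond adult, no design of the knockout allele and no statement that each library came from its own animal, so the tests measure the spread between these libraries.

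A miRNA hairpin is cut into a 5p and a 3p arm, and the arm that is loaded into an Argonaute protein recognises targets mainly through its seed, bases 2 to 8 from the 5′ end. Sfmbt2 encodes a Polycomb group protein, and in mouse and rat an intron of this gene holds a long tandem array of related hairpins with simple repeats in their sequences. The gene is imprinted and expressed from the paternal copy in extraembryonic tissue, and the array is known above all from placenta and embryonic stem cells.

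Of the 81 hairpin genes named for these families in the annotation (build GRCm38, GENCODE release 21), 71 lay in a single Sfmbt2 intron on the strand of the gene. Sfmbt2 runs from 10370510 to 10595253 on the plus strand of chromosome 2, and the intron, between exons 10 and 11 of the annotated transcript that ends with the gene's last base, from 10461473 to 10523944. The other 10 hairpin genes were scattered over chromosomes 3, 5, 7, 9, 10, 11 and 13. Mature sequences of 8 of the 74 rows were found in the RefSeq table (build GRCm38.p6), and each comes from a hairpin outside Sfmbt2. They are shown because they make visible the CA and UG repeats in members encoded outside the intron, with the seed in capitals and the sequence written 5′ to 3′:
miR-466q: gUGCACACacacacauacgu
miR-466k: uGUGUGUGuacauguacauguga
miR-467f: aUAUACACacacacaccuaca
miR-467g: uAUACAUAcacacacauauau
miR-467h: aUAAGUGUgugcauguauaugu
miR-466i-3p: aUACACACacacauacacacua
miR-466j: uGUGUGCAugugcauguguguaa
miR-669n: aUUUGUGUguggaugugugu

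The runs of CA and of UG in these sequences are the same repeat read on opposite strands. A run of at least 4 CA or 4 UG units was present in 6 of the 8, and in 11 (0.655%) of the 1679 mature mouse miRNAs of that table, these 6 included. The longest, of 6 CA units, was in miR-466q, which lies at chr3:28419988-28420007 on the plus strand, in a hairpin within Tnik. No pair among the 8 shared a seed, although the family names are shared. Outside the families, the seed of miR-467h also occurred in miR-668-5p.

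Nearly all reads belonged to names encoded in the Sfmbt2 intron. Rows whose hairpin genes all lie in the intron held 1531 of the 1607 reads of the 74 rows (95.3%, exact 95% interval 94.1 to 96.3). Rows encoded elsewhere held 34 reads (2.12%, interval 1.47 to 2.94), of which miR-466q had 20 and miR-466i-5p 7. Rows with hairpins both in the intron and elsewhere, those of miR-297a and miR-466f, held the remaining 42 reads. Reads of the kit used carry no molecular identifiers, so all intervals of shares cover counting error only.

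As a whole the members were scarce. Over the 7 libraries they had 53.0 counts per 1000000 mouse miRNA reads (CPM), from 30322137 such reads. At least 1 read was counted in 43 of the 74 rows (58.1%), against 67.1% of all 1914 mouse miRNA rows, and at least 10 reads in 20 rows (27.0%, against 41.2%). Another 31 rows had 0 reads, 13 of them of miR-466, 12 of miR-669, 5 of miR-467 and 1 of miR-297. By counting error alone, a count of 0 over all libraries allows up to 0.0989 CPM, the level of 3 reads. This bound does not cover reads that were counted under another, near-identical name. Depth ran from 955057 mouse miRNA reads in knockout replicate 3, where a single read is 1.05 CPM, to 9233235 in knockout replicate 1, where it is 0.108 CPM.

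The miR-669 family, with 745 reads (46.4%, interval 43.9 to 48.8), and the miR-467 family, with 683 (42.5%, interval 40.1 to 45.0), made up most of the signal. The miR-466 family has the second largest number of rows but held only 121 reads (7.53%, interval 6.29 to 8.93), and miR-297 held 58 (3.61%, interval 2.75 to 4.64). Within the families the reads were concentrated in few names: 7 rows carried 1242 of the 1607 reads (77.3%). The 1284 mouse miRNA rows with reads were ordered by reads summed over the libraries, in which the deeper libraries weigh more. The highest member, miR-467d-5p, stood at place 412 and the seventh, miR-467c-5p, at place 526.

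Of the 4 rows with most reads, 3 came from a short stretch toward the distal end of the array. The other, the joined row of miR-669o-3p and miR-669a-3p with 206 reads, has 13 hairpin genes in the intron, none of them in this stretch. The hairpins Mir467e (chromosome 2, 10505721 to 10505807), Mir467d (10507630 to 10507714) and Mir669c (10509296 to 10509404) each have a single named gene. With the 3 named hairpins between them they span 3684 bases. Hairpins were matched by name, and whether any of the 48 unnamed miRNA genes of the intron encodes the same mature forms was not tested. As the stretch was bounded by hairpins of 3 of the 4 rows with most reads, a high share there follows from that choice. Single-hairpin rows of this stretch held 749 reads, 46.6% of all member reads. On the map of reads along the intron, single-hairpin rows proximal to it, among them those of Mir669f and Mir467c, held 170 reads (10.6%) in the first 8.64 kb from the first named hairpin. Those distal to it, led by Mir466g with 40 reads and Mir669o with 29 of its 5p arm alone, held 114 (7.09%), at 45.0 to 51.5 kb. The many copies of miR-467a, miR-466b and miR-669a lie for the most part between Mir467c and Mir467e, and their reads cannot be given to a single copy.

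**Figure D1:**
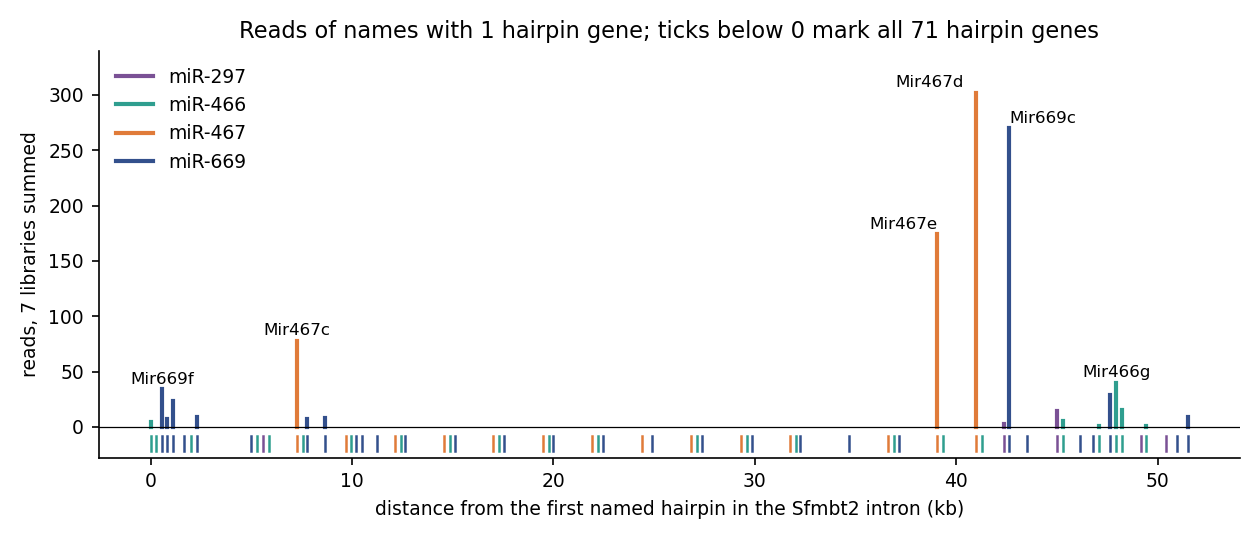
Reads of each name that has a single named hairpin gene, in the Sfmbt2 intron (vertical axis, both arms, 7 libraries summed), against the distance of its hairpin from the first named hairpin (horizontal axis, kb), coloured by family. Ticks below 0 mark all 71 hairpin genes of the intron that are named for these families. Mir467d, Mir669c and Mir467e stand highest, with lower bars on both sides, and names with several hairpin genes appear only as ticks.

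Rows with several hairpin genes ranged from none to many reads. The 56 rows with 1 hairpin gene held 1067 reads (66.4%), a mean of 19.1 and a median of 1 per row, and 32 of them had reads. The 18 rows with 2 or more held 540 (33.6%), a mean of 30 and a median of 1.5 per row, and 11 had reads. Among the latter, miR-467a-5p with 10 hairpin genes had 125 reads, the joined row of miR-669a-3p and miR-669o-3p with 13 hairpin genes had 206, and that of miR-669a-5p and miR-669p-5p with 14 had 113. By contrast, the row joining miR-466b-3p, miR-466c-3p and miR-466p-3p, with 11 hairpin genes, had 0 reads, and the row joining miR-466b-5p with miR-466o-5p, with 9, had 1. Neither arm of miR-467b, a single-hairpin relative of miR-467a, had a read. The counting rule for reads that match several near-identical names is not given in the sources used here, and its part in these values was not tested.

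Arm use differed between and within the families. In miR-467 the 5p rows held 655 reads and the 3p rows 24, in miR-669 503 and 242, of which 206 were in 1 joined 3p row. The 5p arm prevailed in each miR-467 hairpin with reads of a named arm. miR-467d had 278 reads of the 5p and 24 of the 3p arm (92.1% 5p, exact 95% interval 88.4 to 94.8). The 3p rows of miR-467a, miR-467c and miR-467e had 0 reads against 125, 78 and 174 of their 5p arms. In the miR-669 family miR-669c was of the same kind, with 268 reads of the 5p and 2 of the 3p arm (99.3% 5p, interval 97.4 to 99.9). So were the less abundant miR-669d (28 and 0 reads) and miR-669b (22 and 1). miR-669a went the other way, with 113 reads of the 5p row and 206 of the 3p row (35.4% 5p, interval 30.2 to 40.9), although both rows also contain other names, miR-669p on the 5p and miR-669o on the 3p side. Among less abundant hairpins, miR-669f had 13 reads of the 5p and 21 of the 3p arm (38.2% 5p), with an interval of 22.2 to 56.4 that includes equal shares. miR-297b had 14 of the 5p arm against 31 of a 3p row that it shares with miR-297a and miR-297c (31.1% 5p, interval 18.2 to 46.6). miR-466h had 3 reads of the 5p and 12 of the 3p arm (20% 5p, interval 4.33 to 48.1). miR-669o had 29 reads of the 5p arm against the 206 of the 3p row that it shares with miR-669a.

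**Figure D2:**
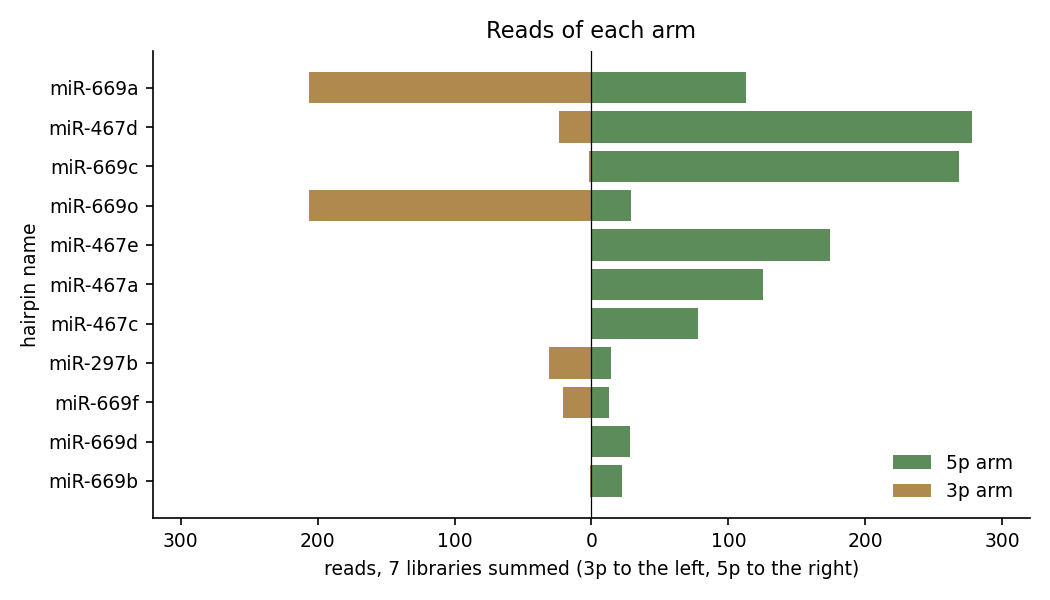
Reads of the 5p arm (right) and the 3p arm (left) for each hairpin name with at least 20 reads of both arms together, 7 libraries summed. The miR-467 names and miR-669c lie to the right, while miR-669a lies to the left; the 206 reads of the 3p row shared by miR-669a and miR-669o are drawn under both names.

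The summed level of the 74 rows was similar in knockouts and wild types. In knockout replicates 1 to 4 it was 51.9, 45.7, 58.6 and 50.0 CPM, and in wild type replicates 1 to 3 it was 54.5, 47.5 and 75.1 CPM. Wild type replicate 3 was the highest library, and its exact 95% interval of 66.5 to 84.6 CPM lay above the intervals of all other libraries except that of knockout replicate 3 (44.3 to 76.1), and the groups overlapped. Knockouts had a mean of 51.6 ± 5.37 CPM (SD, n = 4), wild types one of 59.0 ± 14.4 CPM (SD, n = 3), with a difference of the mean log2 levels of -0.17 ± 0.21 (SE). Without wild type replicate 3 it was 0.01. In bulk tissue, fewer cells of a type and less RNA per cell cannot be told apart.

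**Figure D3:**
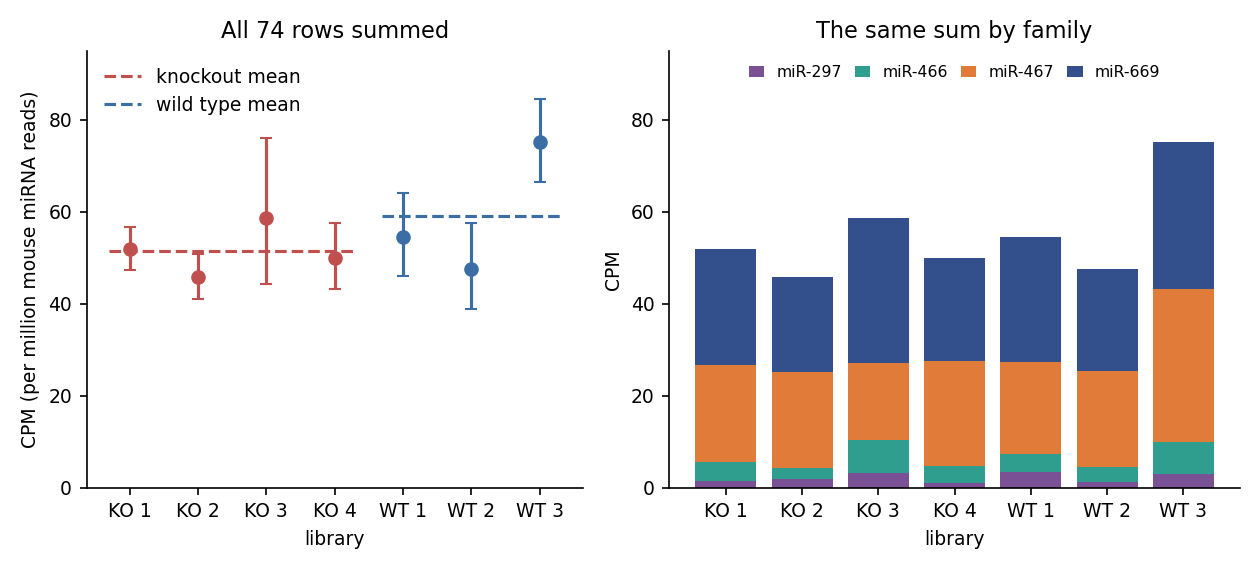
Left, summed CPM of the 74 rows in each library with its exact 95% counting interval, and the group means as dashed lines; right, the same sums as bars divided by family. The knockout libraries lie between 45.7 and 58.6 CPM and wild type replicate 3 at 75.1 CPM, and the groups overlap.

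Each family alone gave the same picture, with overlapping groups. For miR-669 the knockout mean was 24.9 ± 4.75 CPM and the wild type mean 27.0 ± 4.83 CPM, with a log2 difference of -0.12 ± 0.20 (SE). For miR-467 the levels were 20.4 ± 2.61 and 24.8 ± 7.54 CPM, and the difference was -0.24 ± 0.26. This family carried much of the height of wild type replicate 3, where it reached 33.5 CPM against 16.8 to 22.9 CPM in the other 6 libraries. miR-466 stood at 4.37 ± 2.12 and 4.70 ± 1.92 CPM (difference -0.14 ± 0.46), and miR-297 at 1.88 ± 0.92 and 2.57 ± 1.06 CPM (difference -0.45 ± 0.51). Without wild type replicate 3 the miR-466 difference turned to 0.16, and those of miR-467 and miR-669 came to -0.01 and 0.00.

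Wild type replicate 3 also had the highest or the lowest sum of the following tissue markers, in part close to other libraries. The choroid plexus miRNAs (miR-204 and miR-211, 3 of 4 rows with reads, miR-211-3p at 0) summed to 11789 CPM there, to 8320 and 2015 CPM in the other wild types and to 2016 to 7435 CPM in knockouts. This sum was carried by miR-204-5p, with 213975 of its 214202 reads. miR-211-5p did not follow it, at 6.85 CPM in wild type replicate 3 and highest in knockout replicate 3, at 7.33 CPM. The neuronal miRNAs (miR-124 and miR-128, 5 of 5 rows with reads) were lowest in wild type replicate 3, at 14235 CPM. They summed to 19670 and 25235 CPM in the other wild types and to 25699 to 28663 CPM in knockouts, without overlap. miR-128-3p did not overlap either (17802 to 19444 CPM in knockouts, 8795 to 16666.5 CPM in wild types), as 11.8% of all tested rows did not. miR-124-3p overlapped (5948 to 10028 and 5303 to 8763 CPM). edgeR called 0 of the 5 neuronal rows, and 3 had an unadjusted p under 0.05 (12.9% of all tested rows). The multiciliated cell miRNAs (miR-34b, miR-34c, miR-449a and miR-449c, 8 of 8 rows with reads) summed to 1291 to 3675 CPM in wild types. Wild type replicate 3 was highest, with replicate 1 close to it at 3267.5 CPM. In knockouts they summed to 386 to 760 CPM, and the sum was carried by miR-34c-5p. Their 6 tested rows were the 6 rows that edgeR called among all mouse miRNAs, and they went in both directions. The list was chosen with earlier results of these data known, so this match is no independent result. The 4 rows of miR-34b and miR-34c were lower in knockouts, as miR-34c-5p at 305 to 555 CPM against 1174 to 3430 CPM in wild types (log2 fold change -2.40 ± 0.33 (SE), edgeR adjusted p = 0.0048). miR-449a-5p and miR-449c-5p were higher in knockouts, miR-449a-5p at 45.0 to 189 CPM against 18.5 to 28.0 CPM (log2 fold change 2.67 ± 0.41, edgeR adjusted p = 0.0048). The part of tissue makeup in the member levels was not tested.

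Only 7 of the 74 rows passed the filter on low counts and were tested between genotypes, and edgeR's quasi-likelihood test called 0 of them at an adjusted p under 0.05. Among all 534 mouse miRNA rows tested, 6 were called (1.12%). No tested member had an unadjusted p under 0.05 (12.9% of all tested rows did), and DESeq2 called 0 of the 7 (2.43% of all), with 3 of them given no adjusted p. Log2 fold changes were below 0 for 6 of the 7 (52.8% of all tested rows), with a median of -0.19 against -0.02 over all tested rows. Adjusted p ran from 0.47 to 0.91 in edgeR. When no filter was applied, edgeR tested all 43 rows with reads and called 0, against 19 of all 1284 rows (1.48%), with 1 at an unadjusted p under 0.05, miR-297b-5p (9.27% of all).

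miR-669c-5p, the row with the highest mean over the libraries (9.27 CPM, against 8.65 CPM for miR-467d-5p, which had more reads in all), was at 8.56, 7.02, 9.42 and 9.53 CPM in knockout replicates 1 to 4. In wild type replicates 1 to 3 it was at 9.27, 9.04 and 12.1 CPM. The groups overlapped, and the log2 fold change was -0.19 ± 0.24 (SE), with a 95% interval of -0.72 to 0.34. miR-467d-5p was at 9.96, 8.71, 7.33 and 8.50 CPM in the knockouts, against 5.19, 7.69 and 13.2 CPM in the wild types. Its wild type libraries spanned more than the whole range of the knockouts, and its log2 fold change of 0.09 ± 0.30 (interval -0.58 to 0.76) turned to -0.0013 with library totals alone. miR-467e-5p lay in a narrow range, at 5.63, 4.94, 5.24 and 5.93 CPM in the knockouts, against 6.30, 5.43 and 7.40 CPM in the wild types, with a log2 fold change of -0.16 ± 0.26.

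**Figure D4:**
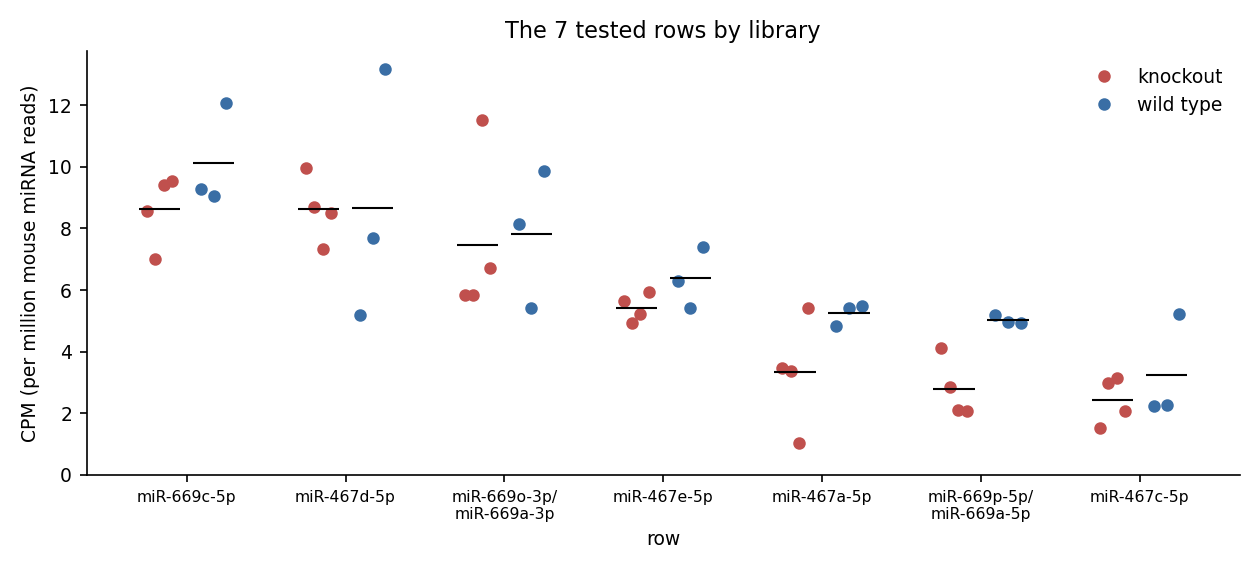
CPM of the 7 tested rows in each library (points) with the mean of each genotype (black lines), ordered by mean level. The points of knockout and wild type overlap for 6 rows, and for the joined row of miR-669p-5p and miR-669a-5p the 4 knockout libraries lie below the 3 wild types.

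The joined row of miR-669p-5p and miR-669a-5p was the only tested member whose groups did not overlap, which 63 of all 534 tested rows (11.8%) shared. It was at 4.12, 2.86, 2.09 and 2.06 CPM in knockout replicates 1 to 4, the last 2 values resting on 2 and 8 reads. In the wild types it was at 5.19, 4.97 and 4.94 CPM, from 14, 11 and 18 reads. Its log2 fold change was -0.64 ± 0.35 (95% interval -1.40 to 0.13, edgeR adjusted p = 0.47). Leaving out single libraries moved this between -0.94 (without knockout replicate 1) and -0.52 (without knockout replicate 4). It was not called under any other setting that gave it an adjusted p (smallest edgeR adjusted p = 0.38), and DESeq2 gave it none. The opposite arm, in the joined row of miR-669o-3p and miR-669a-3p, was at 5.85, 5.85, 11.5 and 6.70 CPM in the knockouts, against 8.15, 5.43 and 9.87 CPM in the wild types, overlapping, with a log2 fold change of -0.16 ± 0.31. As a share of both rows, the 5p row made up 41.3%, 32.8%, 15.4% and 23.5% in knockouts and 38.9%, 47.8% and 33.3% in wild types. These shares overlapped, and that of knockout replicate 3 came from 13 reads (exact 95% interval 1.92% to 45.5%).

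Beside it, miR-467a-5p was at 3.47, 3.38, 1.05 and 5.41 CPM in the knockouts, against 4.82, 5.43 and 5.48 CPM in the wild types. Its lowest value came from 1 read in knockout replicate 3, and the log2 fold change was -0.43 ± 0.36. miR-467c-5p was at 1.52, 2.99, 3.14 and 2.06 CPM in the knockouts, against 2.22, 2.26 and 5.21 CPM in the wild types, where replicate 3 lay far above the others. Its log2 fold change was -0.49 ± 0.45. The 95% intervals of the 7 fold changes reached from -1.49 at the lowest to 0.76 at the highest, so that changes of up to 1.69-fold upward in miR-467d-5p and down to 0.357 of the wild type level in miR-467c-5p lay within them.

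**Figure D5:**
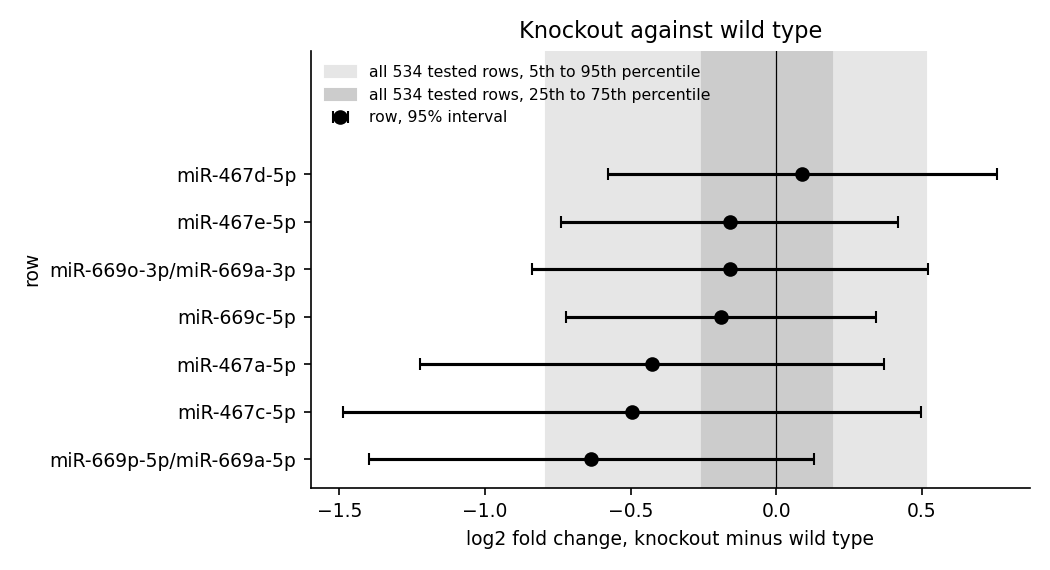
Log2 fold change (knockout minus wild type) of the 7 tested rows with 95% intervals from edgeR; grey bands give the middle of all 534 tested mouse miRNA rows, from -0.79 to 0.52 for the wide band and from -0.26 to 0.19 for the narrow one. All 7 intervals include 0.

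Rows below the filter were read by their counts. In the miR-466 family the most abundant, miR-466g, had 20, 5, 2 and 2 reads in knockouts and 2, 2 and 7 in wild types. miR-466q, the repeat-rich member shown above, had 4, 6, 3 and 2 reads in knockouts and 1, 1 and 3 in wild types, and it was seen in all 7 libraries. miR-466c-5p, encoded by 2 hairpins of the intron, had 19 reads in total, 1 to 5 in each library. The joined row of miR-466a-3p and miR-466e-3p had 4 reads. In the miR-297 family the joined 3p row of miR-297a, miR-297b and miR-297c had 10, 12, 1 and 1 reads in knockouts and 3, 0 and 4 in wild types. Its 5p rows held 14 reads for miR-297b-5p and 10 for miR-297a-5p. The 3p arm of miR-467d, whose 5p arm had the most reads of all members, had 5, 7, 0 and 3 reads in knockouts and 4, 0 and 5 in wild types. In all, 23 rows had between 1 and 9 reads, that of miR-466a-3p and miR-466e-3p included, and they held 82 reads together.

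The number of rows seen in a library was lowest in the shallowest library and highest in the deepest. It was 32, 30, 19 and 26 in knockout replicates 1 to 4 and 25, 20 and 30 in wild type replicates 1 to 3. When each library was thinned to the 955057 mouse miRNA reads of the shallowest, the expected numbers were 15.3, 14.1, 19.0 and 14.4 in knockouts and 16.5, 13.3 and 18.9 in wild types. At equal depth the number was no longer lowest in the shallowest library, and the groups still overlapped.

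As sums, 2 further lists of miRNAs, known from pluripotent cells and placenta or from testis, were scarcer than the Sfmbt2 repeat miRNAs. The miR-290 to miR-295 cluster and miR-302 with its neighbour, known from pluripotent cells and placenta, had 10 reads over 28 rows, 6 of which had any, led by miR-302d-3p with 3 reads and miR-291a-5p with 2. They were at 0 to 1.05 CPM in a library, and 0 of them were tested. The X-linked rodent miRNAs known from testis had 150 reads over 44 rows, 13 with any, at 3.34 to 9.87 CPM in a library. In that group miR-871-3p had 50 reads and miR-547-3p 48, and 1 row was tested and not called by edgeR. Within each library the summed Sfmbt2 repeat miRNAs stood above both groups, with 74 rows in the sum against 28 and 44.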

How the data were processed

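Small RNA was sequenced from lateral ventricles and choroid plexus of 4 TAp73 knockout and 3 wild type libraries, with total RNA isolated by phenol and chloroform and a TruSeq small RNA kit, per the labels' protocols. The authors deposited whole-number read counts for each named small RNA, without normalization. Per the submitters' processing notes, bcl2fastq 2.17.1.14, DESeq2 and the build mm10 were used, in roles not stated; the aligner, counter and annotation were not given in the sources used here. Each table ends with 5 lines for unassigned reads, which hold 0 reads. The 12 rows of other species with the same stems, and 3 member rows joined to a piRNA name, hold 0 reads.

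Members were found by name, and levels are counts per 1000000 mouse miRNA reads (CPM), with 955057 to 9233235 such reads per library. Genotypes were compared with edgeR 4.0.16 in R 4.3.3 (TMM scaling, filterByExpr with minimum count 10 and total 15, robust quasi-likelihood test, Benjamini-Hochberg adjustment over all 534 tested rows, called under 0.05), after checks on simulated data. Sums are given without a test, with log2 differences on the log2(CPM + 0.1) scale. DESeq2 1.42.0, 2 other scalings, 2 other filters, no robust estimation, summing of all species and leaving out each library were tried. Intervals of shares and levels are exact binomial at 95%. Hairpin names were matched to row names, with Mir466 taken for miR-466a and Mir297-1 for miR-297a.

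Described individually are the 3 rows of highest mean level in each family, all tested rows, joined rows with reads and opposite arms; further members named where a count or share is described were chosen after their values were seen. Members, lists (choroid plexus, multiciliated, neuron, oligodendrocyte, erythrocyte, leukocyte and microglia, pluripotent and placental, X-linked testis) and rules were chosen with earlier results of these data known.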

Additional observations from a re-analysis of the deposited data

Results flagged for a closer look

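For 33 quantities it was asked whether any knockout library lay far from the other 3, and 5 did. Chance gives about 1 in 20 for continuous values, a rate that does not apply to rows of so few reads: for 2 of the 5, reads were present in a single knockout library, which sets it apart at any level. In knockout replicate 3, where a single read is 1.05 CPM, miR-297b-5p was at 1.05 CPM from 1 read (0.130 to 0.258 CPM in the others), and miR-466q was at 3.14 CPM from 3 reads (0.433 to 0.780 CPM). In the same library the joined row of miR-669o-3p and miR-669a-3p was at 11.5 CPM from 11 reads, against 5.85 to 6.70 CPM. The joined row of miR-466a-3p and miR-466e-3p was at 0.258 CPM from 1 read in knockout replicate 4 and at 0 in the others. That of miR-466o-5p and miR-466b-5p was at 0.130 CPM from 1 read in knockout replicate 2 and at 0 in the others. With 3 libraries, the wild types were not examined.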

How the results depend on the processing

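No member was called under any setting that tested members, with a smallest adjusted p of 0.38 (edgeR with library totals alone); a filter that asks for 10 CPM in 3 libraries left no member to test. Without knockout replicate 1, and with no filter, 1 member each had an unadjusted edgeR p under 0.05. Of 86 member fold changes under other settings, 83 kept their direction and stayed uncalled. The other 3 reversed, all of miR-467d-5p, at -0.0013 with library totals alone, -0.0081 without knockout replicate 1 and -0.18 without wild type replicate 1; without wild type replicate 3 its fold change kept its direction at 0.53. Library totals alone moved the median of all tested rows by -0.08. The number of mouse miRNA rows called was 6 in edgeR, 13 in DESeq2, which gave no adjusted p to 63 rows, and 19 with no filter. It ranged from 3 (without wild type replicate 1) to 14 (without wild type replicate 2) when single libraries were left out. Of 60 summed log2 differences under other settings, 58 moved by less than the SD between libraries within groups. This is a weak check, as that SD exceeded the size of each main difference (0.24 against -0.17 for the whole sum). A change of sign could therefore pass, as for miR-669, at 0.05 without joined rows. Some settings could move nothing: the added rows of other species hold 0 reads, and miR-467 has no joined row to leave out. The miR-297 difference of -0.45 became -1.26 without its joined 3p row, which is also its most abundant. Leaving out single libraries moved the whole sum between -0.32 and 0.01, miR-297 between -0.83 and -0.21, miR-466 between -0.43 and 0.16, miR-467 between -0.38 and -0.01, and miR-669 between -0.26 and 0.00. With a minimum of 10 reads in total, 20 rows counted as seen in place of 43. The causes were not tested. No paired analysis was possible because replicate numbers were given in accession order and pair no libraries. Depth limits all single rows: 3 reads are 0.325 CPM in knockout replicate 1 and 3.14 CPM in knockout replicate 3.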

Other observations

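The marker miRNAs of oligodendrocytes, erythrocytes, leukocytes and microglia varied less between libraries than those of the choroid plexus. The oligodendrocyte miRNAs (miR-219a and miR-338, 4 of 5 rows with reads, miR-219a-5p at 0) summed to 603 to 839 CPM in knockouts and to 605 to 1001 CPM in wild types, the highest value in wild type replicate 3. The erythrocyte miRNAs (miR-451a, miR-144 and miR-486a) summed to 3764 to 5217 CPM in knockouts and 3859 to 4196 CPM in wild types. The leukocyte and microglia miRNAs (miR-223, miR-150 and miR-142a) summed to 588 to 783 CPM in knockouts and 533 to 599 CPM in wild types. In each of these lists edgeR tested 4 rows and called 0, as against 1.12% of all tested rows; 1 erythrocyte row and 0 of the others passed an unadjusted p of 0.05, and none was called by DESeq2.

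The Sfmbt2 intron also holds 48 annotated miRNA genes with no family name. They were not analysed here.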
